A study of Mus musculus with 14 samples.

Results

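The 44 genes described here are genes used as markers of astrocytes or known to be highly expressed in them. They were taken by symbol from the 34193 symbols of a table of read counts, all 44 were found, and all 44 passed the filter on low counts that left 13815 genes for testing. Cortex was taken from 14 mice of the C57BL/6J strain at 8 weeks of age, and its total RNA was sequenced. One copy of Dnmt3a, which encodes a DNA methyltransferase, was knocked out in 7 heterozygous animals, and 7 wild-type littermates served as controls, with 4 females and 3 males in each genotype. Each sample title starts with a number shared by animals of both genotypes, and each of these title prefixes holds animals of 1 sex. Prefixes 046 and 048 (males) and 047 and 139 (females) each held 1 animal of each genotype, as did prefix 119 (males), while prefix 141 (females) held 2 of each. What the prefix stands for is not in the labels, nor what part of Dnmt3a was deleted, or in which cells.

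Astrocytes are glial cells that take up glutamate and potassium released by neurons, turn glutamate into glutamine, supply lipoprotein particles and other secreted proteins, and cover blood vessels with endfeet rich in a water channel. They are joined to each other by gap junctions, and in the healthy cortex most of them carry little of the filament protein Gfap, which is abundant in astrocytes of white matter and at the brain surface. Several of the genes are also expressed elsewhere, among them Vim in vessels, Apoe in microglia, Glul in oligodendrocytes and Mt1 and Mt2 in many cell types.

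Total counts per animal lay between 8951835 and 14335406. Dnmt3a was at 146 ± 14.2 CPM (counts scaled to a common library size) in wild-type cortex and 99.0 ± 11.4 CPM in heterozygous cortex (SD, n = 7 each), with a log2 fold change of -0.57 (SE 0.0752, adjusted p = 0.00774 by edgeR). The first principal component set the 6 animals of prefixes 119 and 141, called set B, apart from the 8 animals of the other prefixes, called set A. These sets were named after that was seen. Set B held 3 animals of each genotype and set A held 4 of each.

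The label was checked against Gfap, Aqp4 and Slc1a3, the filament protein, the endfoot water channel and a glutamate transporter of astrocytes. All of them were well above the filter in every animal. Gfap was at 93.2 CPM or more, Aqp4 at 127 or more and Slc1a3 at 464 or more. Astrocyte transcripts were thus measured in every cortex, in tissue that also held neurons, oligodendrocytes, microglia and vessels. Whether each of the 44 was read from astrocytes is not shown by these levels.

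Levels were compared between genes as CPM per kilobase of annotated exon, averaged over the 14 animals. Slc1a2, the main glutamate transporter of the forebrain, was highest at 829 CPM per kilobase and ranged from 633 to 1232 over the animals. Glul, which encodes glutamine synthetase, followed at 713, and the secreted matrix protein gene Sparcl1 at 559. The apolipoprotein genes Apoe and Clu had levels per kilobase of 373 and 281. At the low end were Agt, the angiotensinogen gene, at 4.75, Itih3, which encodes a hyaluronan-binding heavy chain, at 4.05, Cbs, which encodes cystathionine beta-synthase, at 2.77, and the phospholipase gene Plcd4 at 2.29 CPM per kilobase. In all 43 pairs of neighbours in this order the ranges over animals overlapped, so the exact order of neighbours is not resolved by these animals. Agt, with the lowest mean count, had 107 reads on average over the animals and 40 in the animal with the fewest.

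**Figure D1:**
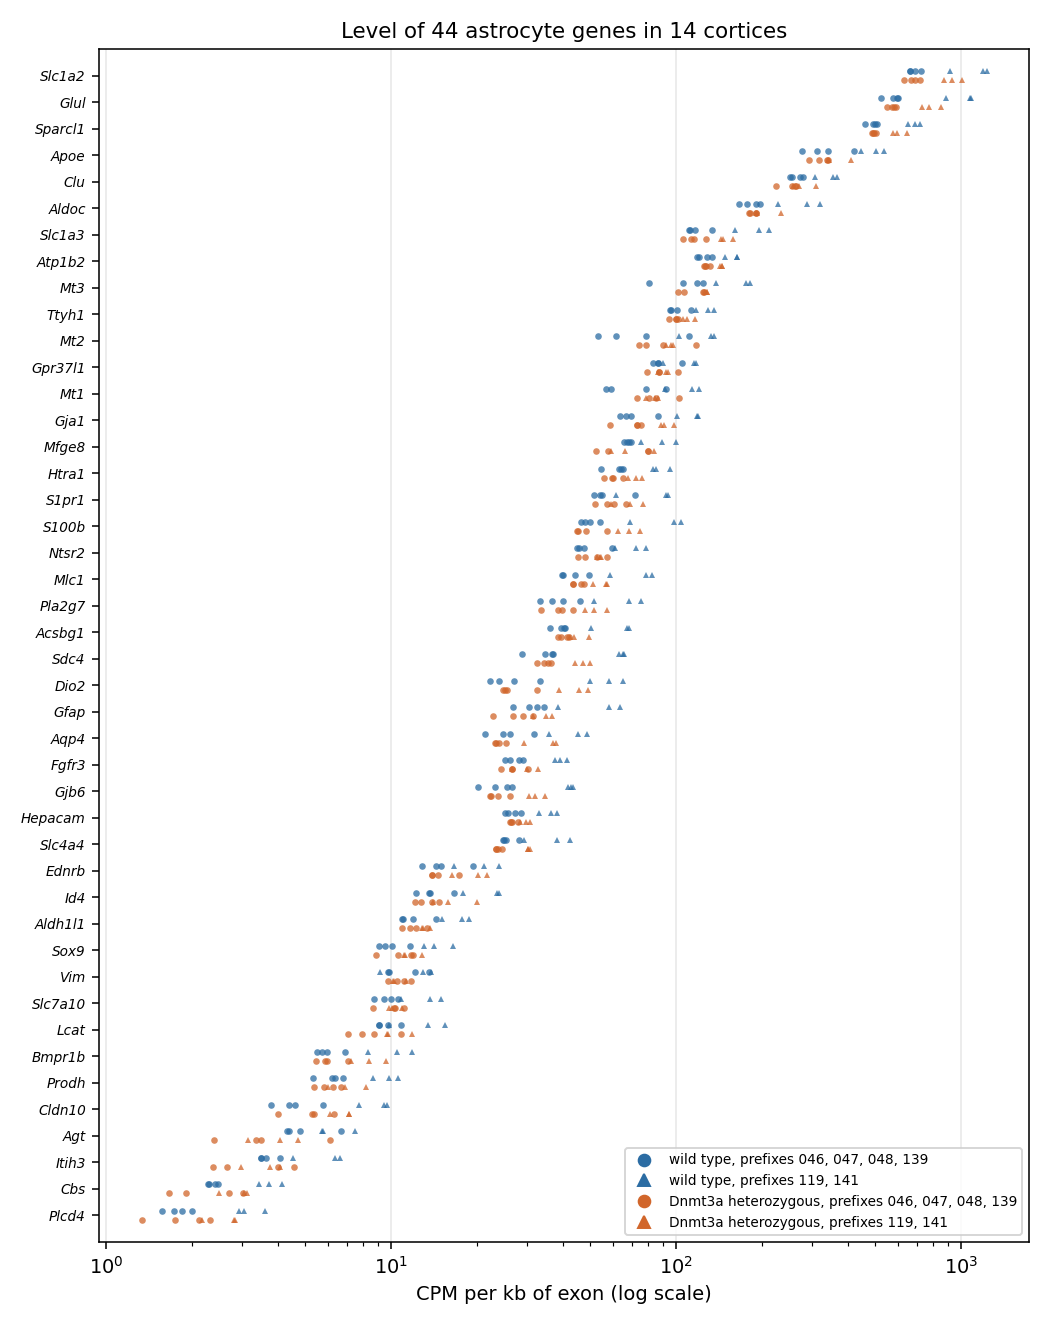
Level of each astrocyte gene in each of the 14 cortices, as CPM per kilobase of exon on a log axis, with genes in the order of their mean; colour gives the genotype and symbol shape the set of title prefixes. Slc1a2 lies highest and Plcd4 lowest, and for most genes the triangles of prefixes 119 and 141 lie to the right of the circles.

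Between genotypes, no astrocyte gene passed the threshold in the fit of all 14 animals with sex as a term, yet all 44 had a negative log2 fold change. Of all genes tested, 0.0145% were called in either direction and 49.1% had a negative value. The median of the 44 was -0.17, against 0.0024 over all genes tested, and the values ran from -0.49 for Agt to -0.05 for Atp1b2, which encodes a beta subunit of the sodium pump. Without wild-type replicate 6, a female of prefix 141, the median was -0.09 and 40 of the 44 were negative. Adjusted p-values by edgeR lay between 0.978 and 0.986. At an unadjusted p under 0.05 stood 3 of the genes, Agt, Gfap and Itih3, where 2.24% of all genes were lower at that level, and DESeq2 called none of the 44 and 0.0796% of all genes. Wild-type and heterozygous ranges overlapped for every one of the 44 genes, while 0.0434% of all genes had every wild-type animal above every heterozygote. In bulk tissue, fewer astrocytes and less RNA per astrocyte cannot be told apart.

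Agt encodes the precursor of the angiotensin peptides. It was at 8.16 CPM in the lowest, 10.8 in the median and 14.1 in the highest wild-type animal. In heterozygotes the lowest, median and highest were at 4.53, 6.63 and 11.6 CPM. The groups overlapped through 2 heterozygotes, of prefixes 048 and 141, yet within each title prefix the mean of the heterozygotes lay below that of the wild-type animals. When the title prefix replaced sex as a block, the log2 value of Agt fell by 0.52 (SE 0.103), which passed (adjusted p = 0.0234 by edgeR), and it was the only one of the 44 genes called there, where 0.145% of all genes were called lower. In the same fit 22 of the 44 had an unadjusted p under 0.05, all lower, against 6.7% of all genes. With sex and set both as terms, edgeR called none of the 44 and 0.109% of all genes. In that fit 19 of the 44 had an unadjusted p under 0.05, all lower, against 5.18% of all genes. In the authors' deposited table none of the 44 was called either, where 0.191% of genes with an adjusted p were. The authors' deposited table gives all 44 a negative log2 fold change, from -0.213 for Agt to -0.0104 for Mt2, on a scale shrunken towards 0.

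Gfap encodes the main intermediate filament protein of astrocytes. Its levels were 109 CPM in the lowest, 140 in the median and 259 in the highest wild-type animal, and 93.2, 128 and 150 CPM in heterozygotes. The pair of wild-type females of prefix 141 stood above all other animals, and the other wild-type animals, at 109 to 157 CPM, overlapped with the heterozygotes. The log2 fold change was -0.40 (SE 0.171), short of the threshold (adjusted p = 0.978 by edgeR). Without wild-type replicate 7, which is of prefix 141, it was -0.27.

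The promoter windows of Agt and Gfap are shown because these genes had the lowest p-values of the 44 in the comparison of genotypes. They are RefSeq windows of GRCm38.p6 from 250 bases before to 50 after the annotated start. The Agt window is chr8:124569657-124569956 and the Gfap window chr11:102897151-102897450, both on the minus strand. Capitals mark matches to TTCNNNGAA, the core that STAT factors bind. It was searched on both strands and reads the same on each.
Agt: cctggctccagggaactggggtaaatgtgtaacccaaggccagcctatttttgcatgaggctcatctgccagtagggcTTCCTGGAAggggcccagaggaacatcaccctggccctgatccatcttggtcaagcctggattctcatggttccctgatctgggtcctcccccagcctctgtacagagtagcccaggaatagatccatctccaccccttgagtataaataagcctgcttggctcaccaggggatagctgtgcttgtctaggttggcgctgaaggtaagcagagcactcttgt
Gfap: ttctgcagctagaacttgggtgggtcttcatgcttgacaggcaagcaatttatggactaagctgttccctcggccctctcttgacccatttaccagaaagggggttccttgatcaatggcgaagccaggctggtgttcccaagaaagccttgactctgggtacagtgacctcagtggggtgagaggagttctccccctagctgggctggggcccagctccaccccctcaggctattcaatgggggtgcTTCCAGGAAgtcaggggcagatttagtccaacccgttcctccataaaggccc
In Agt the match starts 172 bases before the start site, and in Gfap 2 bases before it. The Agt window holds 1 CG dinucleotide and the Gfap window 3, whereas the median window of the 44 genes held 8 and that of all genes 7. Windows were found for 38 of the 44 symbols, 47 in all, and 8 of these (17%) held TTCNNNGAA, against 8.3% of 32851 windows of all genes. The TATA core TATAAA stood in 7 of the 47 (14.9%) and in 13.6% of all windows. These matches are letters only, and no binding or methylation was measured here.

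Aqp4 and Slc1a3 had smaller differences between genotypes than Gfap. For Aqp4 the lowest, median and highest wild-type animals were at 127, 187 and 289 CPM and the heterozygotes at 136, 150 and 224 CPM. For Slc1a3 they were at 489, 590 and 932 CPM in wild-type animals and at 464, 560 and 700 CPM in heterozygotes. In both genes the groups overlapped, while the wild-type females of prefix 141 lay above every heterozygote. The log2 fold changes were -0.22 (SE 0.172) for Aqp4 and -0.19 (SE 0.142) for Slc1a3, and neither passed (adjusted p = 0.978 by edgeR). Without wild-type replicate 6 they were -0.12 for Aqp4 and -0.09 for Slc1a3. Itih3 was at 10.5, 12.2 and 19.8 CPM in the lowest, median and highest wild-type animals and at 7.13, 11.3 and 13.6 CPM in heterozygotes, with a log2 fold change of -0.37 (SE 0.176, adjusted p = 0.978 by edgeR).

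**Figure D2:**
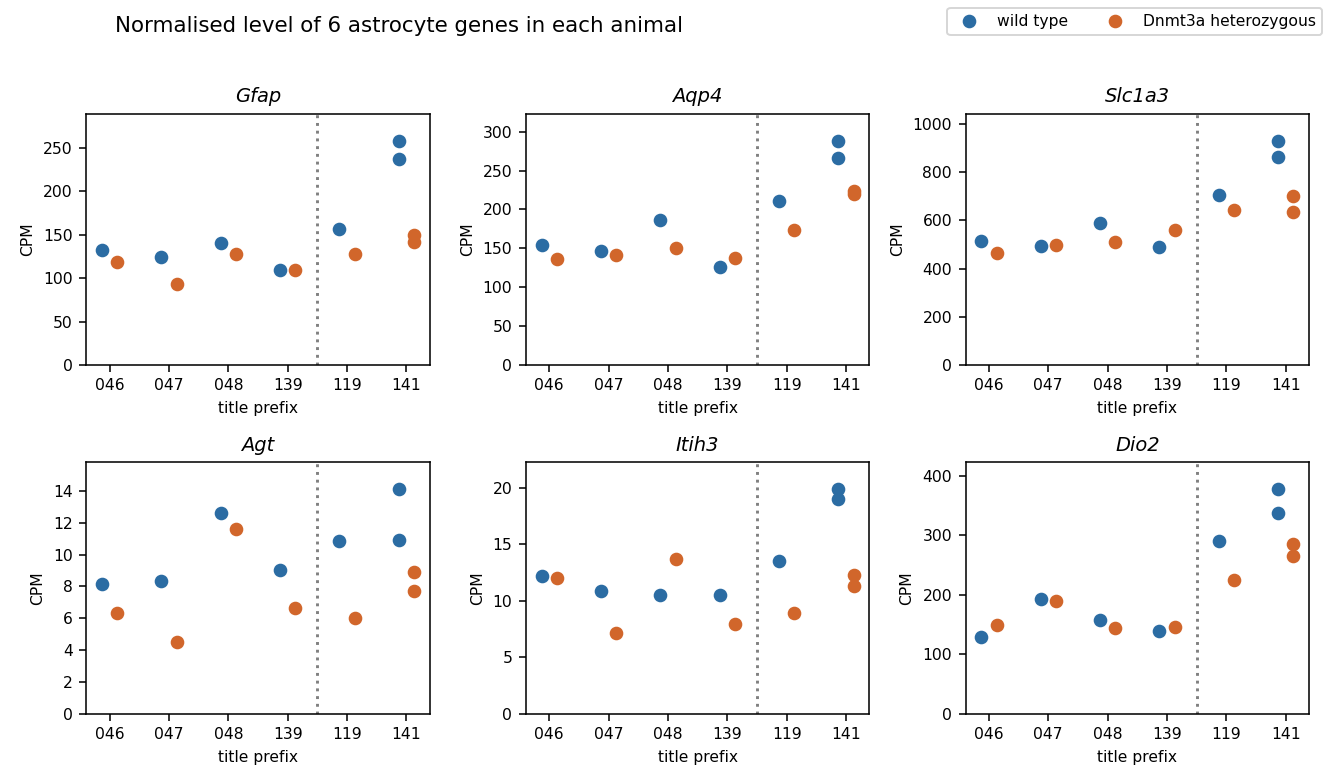
Normalised level in CPM of 6 astrocyte genes in each animal, by title prefix, with wild-type animals in blue and heterozygotes in orange; the dotted line divides set A (left) from set B (right). Gfap, Aqp4, Slc1a3 and Dio2 lie highest in the wild-type animals of prefix 141, while for Agt the heterozygotes lie below the wild-type animals within each prefix.

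Grouped by role, the medians lay between -0.22 and -0.06, with none of the 44 past the threshold. The 10 genes of ion, water and glutamate handling had a median log2 fold change of -0.16, and the 9 secreted proteins one of -0.18. The 7 enzymes had a median of -0.19, with Prodh (proline dehydrogenase) at -0.24 and Aldoc, the brain form of aldolase, at -0.19. The 7 receptors and the surface proteoglycan gene Sdc4 among them had a median of -0.13, and the 3 junction genes, the connexins Gja1 and Gjb6 and the claudin Cldn10, one of -0.16. The astrocyte transcription factor gene Sox9 was at -0.10 and Id4 at -0.22. The 3 metallothionein genes lay nearest to 0, with a median of -0.06.

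The larger differences were those between title prefixes. In a test over the prefixes with genotype as a term, 36 of the 44 genes passed, where 33.2% of all genes did. The strongest was Dio2, which encodes the deiodinase that makes active thyroid hormone in the brain (adjusted p = 4.54e-07 by edgeR). The 8 that did not pass were Aldh1l1, Gpr37l1, Mfge8, Mt1, Mt2, Ntsr2, Slc7a10 and Vim. As each prefix holds 1 sex, this test includes the difference between sexes.

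Because the sets were defined from the data, their levels are described and not tested. All 44 genes had a higher fitted level in set B than in set A, where 49.8% of all genes did. So did 30 of 34 further astrocyte genes, 12 of 13 microglia, 11 of 13 vessel and 7 of 11 oligodendrocyte markers. Of 13 neuron markers 2 did, and of 10 markers of meninges and fibroblasts 1 did. The median difference of the 44 was 0.39 on the log2 scale, from 0.0049 for the filament gene Vim to 0.88 for Dio2. For 17 genes every animal of set B lay above every animal of set A, among them Slc1a2, Slc1a3, Glul, Gja1, Gjb6, S100b and Sdc4, and 5.96% of all genes did so. None lay the other way around, against 6.16% of all genes. In 41 of the 44 the median of the set B heterozygotes was above the median of the set A wild-type animals. The share of all genes with this order was not counted. The share of all reads that fell on the 44 genes was 1.72% ± 0.103 for the wild-type mice of set A and 1.70% ± 0.0470 for its heterozygotes (SD, n = 4). For set B this share was 2.71% ± 0.346 among wild-type mice and 2.24% ± 0.146 among heterozygotes (SD, n = 3).

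Dio2 had the widest spread of the 44 over the animals, with an SD of 0.523 in log2 CPM. In set A the wild-type animals were at 129, 140, 157 and 194 CPM and the heterozygotes at 144, 146, 148 and 189 CPM. In set B the wild-type animals were at 290, 338 and 378 CPM and the heterozygotes at 225, 265 and 285 CPM. The sets did not overlap, and within set B neither did the genotypes. Agt (SD 0.449) and Cldn10 (SD 0.420) followed. Cldn10 ranged from 9.86 to 25.1 CPM in wild-type animals with a median of 15.0, and from 10.4 to 18.5 CPM in heterozygotes with a median of 15.8, a log2 fold change of -0.12 (SE 0.194). This value was -0.01 without wild-type replicate 7 and -0.22 without wild-type replicate 2.

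The narrowest were Atp1b2 (SD 0.150), the tweety family channel gene Ttyh1 (SD 0.164) and the orphan receptor gene Gpr37l1 (SD 0.174). Atp1b2 was at 336, 381 and 466 CPM in the lowest, median and highest wild-type animals and at 357, 376 and 414 CPM in heterozygotes. Ttyh1 was at 419, 494 and 599 CPM in wild-type animals and at 416, 445 and 511 CPM in heterozygotes. For Gpr37l1 the values were 189, 204 and 267 CPM against 180, 197 and 230 CPM. The genotypes overlapped in each of them, and their log2 fold changes of -0.05 (SE 0.0815), -0.12 (SE 0.0846) and -0.13 (SE 0.0830) did not pass (adjusted p = 0.978 for each by edgeR). Without wild-type replicate 6 they were -0.0063 for Atp1b2, -0.06 for Ttyh1 and -0.08 for Gpr37l1.

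**Figure D3:**
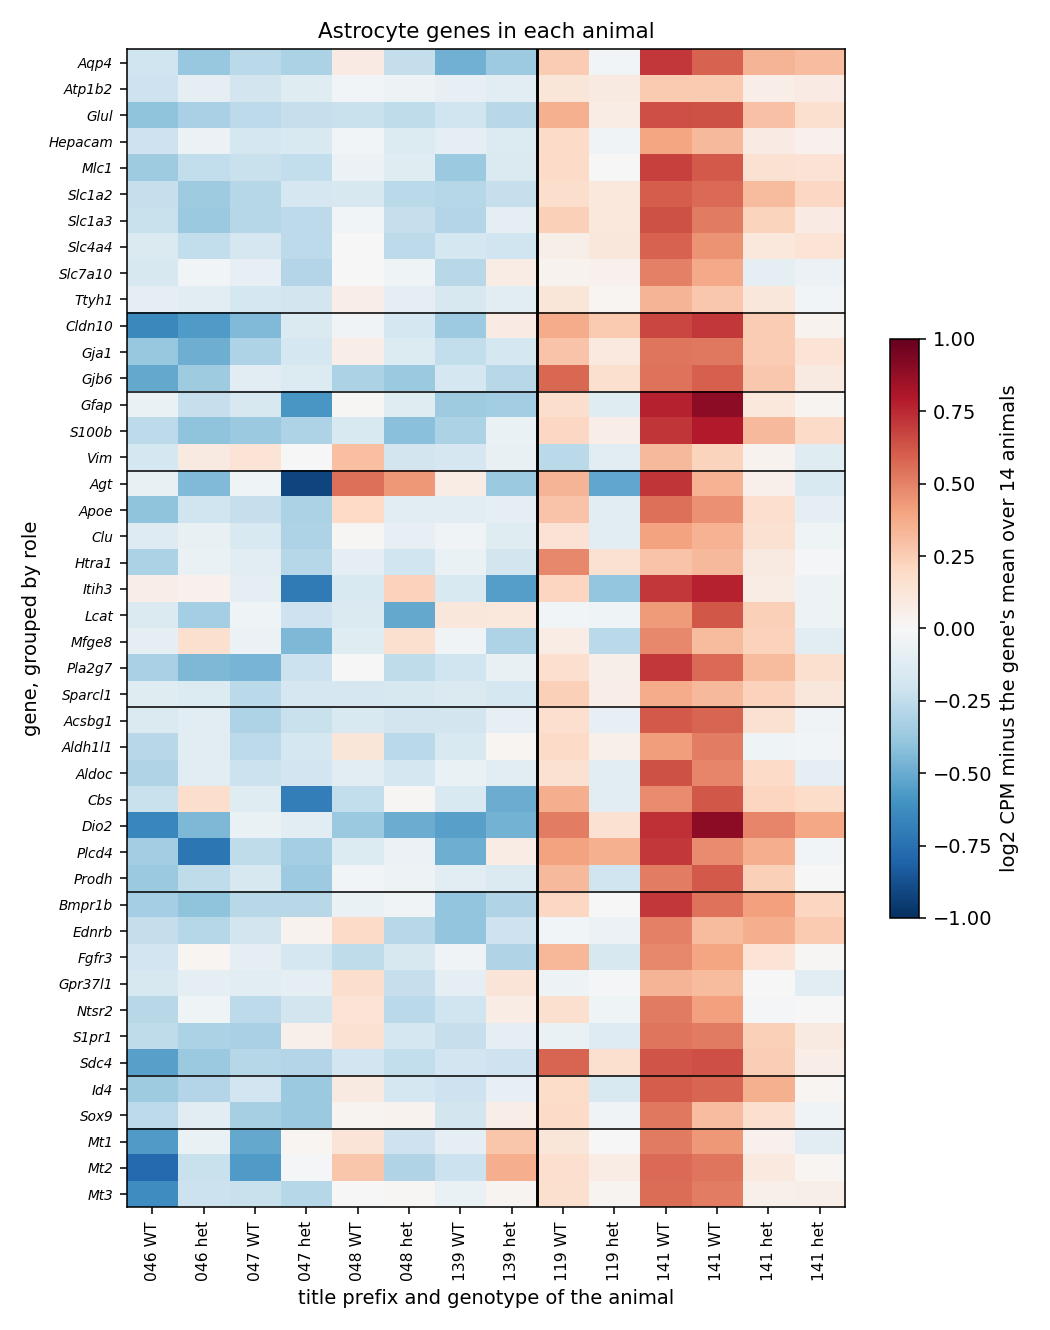
Log2 CPM of each astrocyte gene (rows, grouped by role) in each animal (columns, by title prefix and genotype), minus the gene's mean over the 14 animals; red is above and blue below that mean. The 6 columns of prefixes 119 and 141, right of the black line, are mostly red, and the wild-type animals of prefix 141 are the reddest.

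Genotype was then compared within each set, in a fit of all 14 animals with sex and set as terms. In set A the 44 genes scattered around 0, and in set B all of them were lower in heterozygotes. In set A 25 were negative, where 49.6% of all genes were, and 19 positive, with a median of -0.01 and a range from -0.35 for Agt to 0.25 for Mt1. Without wild-type replicate 4, a male of prefix 048, 11 were negative and the median was 0.07. None was called by edgeR, where 0.00724% of all genes were, and none had an unadjusted p under 0.05 (4.47% of all genes). In set B, where 50.1% of all genes were negative, the median was -0.36, against -0.0004 over all genes, and the range was from -0.67 for Itih3 to -0.08 for the endothelin receptor gene Ednrb. There 16 of the 44 fell, where 2.69% of all genes were called lower. When the title prefix replaced sex and set as a block, 34 were called lower in set B, where 6.44% of all genes were. Without the filter on low counts 35 were, against 3.14% of all genes.

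The 16 that fell in set B came from most of the roles. Among genes of ion, water and glutamate handling they were Glul (-0.37), Slc1a3 (-0.33), Mlc1 (-0.41) and Hepacam (-0.27). The proteins of Mlc1 and Hepacam form a complex at astrocyte endfeet. The connexin gene Gjb6 (-0.40) and the calcium-binding protein gene S100b (-0.39) also fell, as did Clu (-0.30) and the serine protease gene Htra1 (-0.29) among the secreted proteins. Of the 7 enzymes 5 fell, namely the acyl-CoA synthetase gene Acsbg1 (-0.45), Aldh1l1, which encodes a folate enzyme used as a pan-astrocyte marker (-0.38), Aldoc (-0.43), Dio2 (-0.37) and Prodh (-0.46). Of the receptors and proteoglycan genes, Fgfr3 (-0.40), the neurotensin receptor gene Ntsr2 (-0.39) and Sdc4 (-0.46) fell. Sdc4 had the lowest adjusted p of the 44 (0.00611 by edgeR). In this fit no metallothionein or transcription regulator gene passed, with set B values of -0.38 for Mt1, -0.36 for Mt2, -0.37 for Mt3, -0.31 for Sox9 and -0.38 for Id4. With the prefix as a block the same 16 genes were called in set B and 18 more. These were Agt, Apoe, Aqp4, Bmpr1b, Cbs, Cldn10, Gfap, Gja1, Id4, Itih3, Mt3, Pla2g7, Slc1a2, Slc4a4, Slc7a10, Sox9, Sparcl1 and Ttyh1. The adjusted p-values by edgeR in that fit were 0.00156 for Mt3, 0.00172 for Id4 and 0.00681 for Sox9, and Mt1 (0.219) and Mt2 (0.38) did not pass.

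Sdc4, which encodes a heparan sulfate proteoglycan of the cell surface, shows the pattern animal by animal. In set A the wild-type animals were at 71.0, 85.1, 90.7 and 90.8 CPM and the heterozygotes at 80.0, 84.6, 87.3 and 89.9 CPM. In set B the wild-type animals were at 155, 161 and 162 CPM and the heterozygotes at 109, 116 and 123 CPM. The genotypes overlapped in set A and were apart in set B, where both lay above all of set A. The log2 fold change was 0.02 in set A and -0.46 (SE 0.0787) in set B.

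Gfap in set A was at 109, 124, 133 and 140 CPM in wild-type animals and at 93.2, 109, 118 and 128 CPM in heterozygotes. In set B it was at 157, 238 and 259 CPM in wild-type animals and at 128, 142 and 150 CPM in heterozygotes. The genotypes did not overlap in set B, and in set A they did. Its log2 fold changes of -0.17 (SE 0.154) in set A and -0.63 (SE 0.175) in set B did not pass in this fit (adjusted p = 0.0645 in set B by edgeR), and with the prefix as a block the value in set B did (adjusted p = 0.00013 by edgeR).

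Agt in set A was at 8.16, 8.30, 9.04 and 12.6 CPM in wild-type animals and at 4.53, 6.33, 6.63 and 11.6 CPM in heterozygotes. In set B it was at 10.8, 10.9 and 14.1 CPM in wild-type animals and at 5.98, 7.70 and 8.90 CPM in heterozygotes. Agt was thus lower in both sets, with log2 values of -0.35 (SE 0.232) and -0.64 (SE 0.259), neither of which passed (adjusted p = 0.166 in set B by edgeR). With the prefix as a block, the value in set B passed (adjusted p = 0.00238 by edgeR).

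In 28 of the 44 genes every set B wild-type animal lay above every set B heterozygote, where 11.3% of all genes did. None lay the other way around, against 10.8% of all genes. In set A this held for 1 gene, Slc4a4, which encodes a sodium bicarbonate cotransporter, where 1.37% of all genes did, and the reverse held for none of the 44 and 1.56% of all genes. The 16 without such a separation in set B included Aqp4, Slc1a2 and Slc4a4. Slc1a2 was at 11042, 14511 and 14897 CPM in the set B wild-type animals and at 10529, 11266 and 12198 CPM in the heterozygotes, with a log2 fold change of -0.25 (SE 0.0902, adjusted p = 0.112 by edgeR). With the prefix as a block it was -0.24 (SE 0.0684) and passed (adjusted p = 0.0164 by edgeR).

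The number of calls in set B depended on single animals. It was 0 without wild-type replicate 6, where 0% of all genes were called lower, and 0 without heterozygous replicate 7 (0.00721% of all genes). It was 2 without heterozygous replicate 5 (0.072%) and 3 without wild-type replicate 7 (0.383%). It was 28 without wild-type replicate 4 (4.12%) and 29 without wild-type replicate 5 (6.22%). Calls over all genes thus rose and fell with those of the 44. In a fit of the set B animals alone, with few residual degrees of freedom, 39 of the 44 were called lower, where 7.72% of all genes were. In a fit of the set A animals alone edgeR called none of the 44 and no gene at all (0%).

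The difference between the sets in the effect of genotype was tested as a contrast of its own. It was negative for all 44 genes and for 50.9% of all genes tested, which means lower heterozygotes relative to wild type in set B than in set A, with a median of -0.36. None of the 44 was called by edgeR, nor was any gene of all tested (0%), and 22 of the 44 had an unadjusted p under 0.05, against 7.34% of all genes in that direction. The lowest adjusted p of the 44 was 0.0624, for Sdc4. DESeq2 called 7 of the 44, where 2.89% of genes with an adjusted p were called in that direction. With the prefix as a block 15 were called, where 2.71% of all genes were called in that direction. Without the filter on low counts 15 were called too, against 1.08% of all genes. Those called with the block were Acsbg1, Aldoc, Apoe, Cldn10, Dio2, Fgfr3, Gfap, Gjb6, Glul, Hepacam, Mlc1, Mt3, Prodh, Sdc4 and Sox9, and their adjusted p-values began at 0.00148 for Sdc4 (by edgeR). Without the block, edgeR called 18 when wild-type replicate 4 was left out, where 2.03% of all genes were called in that direction, and 16 when wild-type replicate 5 was, where 2.7% were.

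With the block, the difference for Acsbg1 was -0.49 (SE 0.0871) on the log2 scale and that for Glul -0.37 (SE 0.0791). Acsbg1 was at 104, 114, 116 and 117 CPM in set A wild-type animals and at 111, 114, 119 and 122 CPM in set A heterozygotes. In set B it was at 145, 194 and 198 CPM in wild-type animals and at 122, 126 and 143 CPM in heterozygotes. Glul was at 1462, 1614, 1660 and 1680 CPM in set A wild-type animals and at 1539, 1597, 1625 and 1650 CPM in set A heterozygotes. Its set B levels were 2466, 3007 and 3020 CPM in wild-type animals and 2034, 2165 and 2369 CPM in heterozygotes. In both genes the genotypes overlapped in set A, were apart in set B, and every set B animal exceeded every set A animal.

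**Figure D4:**
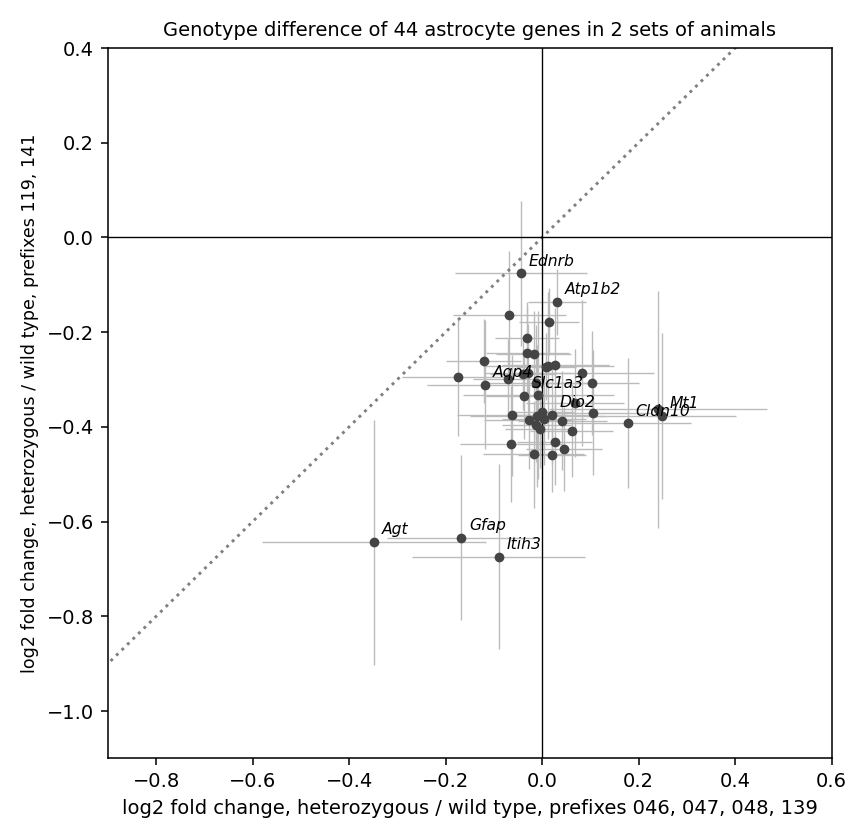
Log2 fold change between heterozygous and wild-type animals of each astrocyte gene in set A (x axis) and set B (y axis), from 1 fit of all 14 animals; bars are the standard error and the dotted line marks equal values. All 44 genes lie below the dotted line and below 0 on the y axis, while on the x axis they lie on both sides of 0.

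Prefix by prefix, with 1 or 2 animals of each genotype and no test, the heterozygote was the lower one in 17 of the 44 genes in prefix 046, in 24 in prefix 047, in 35 in prefix 048 and in 17 in prefix 139. It was lower in 40 in prefix 119 and in all 44 in prefix 141. The median log2 differences were 0.07, -0.02, -0.12, 0.07, -0.20 and -0.40 in that order. Over all genes tested the share that was lower in the heterozygote was between 49.2% and 50.2% in every prefix. Set B thus held 1 prefix of each sex with most of its genes lower in heterozygotes, and prefix 141, with its wild-type females, held the larger differences.

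**Figure D5:**
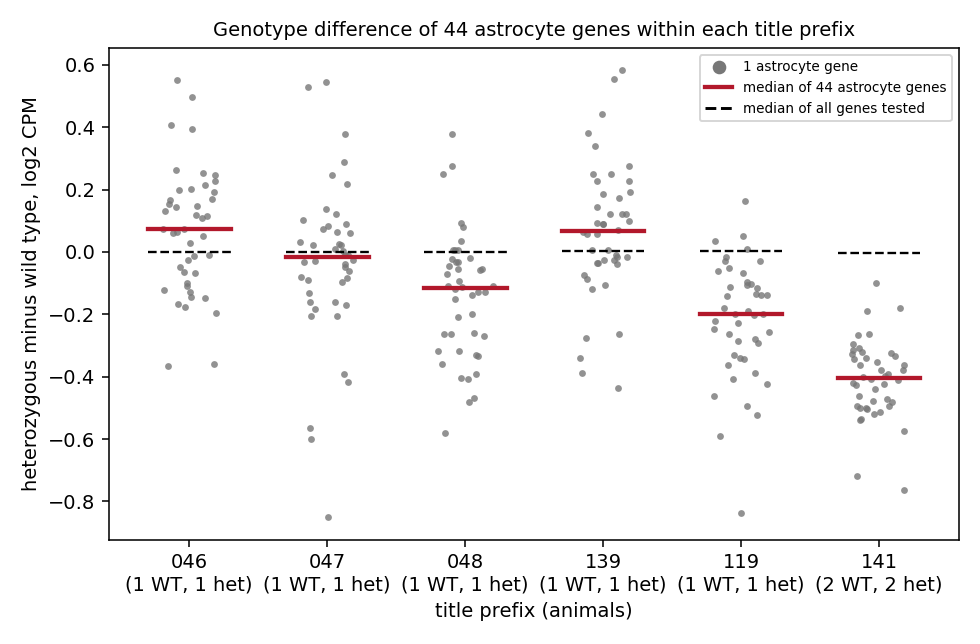
Difference in log2 CPM between heterozygous and wild-type animals within each title prefix; each point is 1 of the 44 astrocyte genes, the red line their median and the dashed line the median of all genes tested. The red line lies at -0.40 in prefix 141 and at -0.20 in prefix 119, and between -0.12 and 0.07 in the other prefixes.

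The 3 metallothionein genes encode small proteins that bind zinc and copper, and Mt3 is the form of the brain. Their promoter windows, from RefSeq (GRCm38.p6), are shown because the genes lie near each other on chromosome 8 and Mt1 had the widest split of the 44 between the sets in the effect of genotype. The windows are chr8:94178839-94179138 for Mt1, chr8:94172368-94172667 for Mt2 and chr8:94152357-94152656 for Mt3, all on the plus strand. Capitals mark matches, on either strand, to TGCNCNC, the core of the metal response element, written with N in place of its purine.
Mt1: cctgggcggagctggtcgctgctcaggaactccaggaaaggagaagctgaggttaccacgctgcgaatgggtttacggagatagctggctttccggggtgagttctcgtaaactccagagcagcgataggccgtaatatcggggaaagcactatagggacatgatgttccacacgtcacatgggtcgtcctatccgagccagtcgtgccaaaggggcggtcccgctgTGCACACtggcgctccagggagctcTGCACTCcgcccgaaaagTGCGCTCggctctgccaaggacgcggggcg
Mt2: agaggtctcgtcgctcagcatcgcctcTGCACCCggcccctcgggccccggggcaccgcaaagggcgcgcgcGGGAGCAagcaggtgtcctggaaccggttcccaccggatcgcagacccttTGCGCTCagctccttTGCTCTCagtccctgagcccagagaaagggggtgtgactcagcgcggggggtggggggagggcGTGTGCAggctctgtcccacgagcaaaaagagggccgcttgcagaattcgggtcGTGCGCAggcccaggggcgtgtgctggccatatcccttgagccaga
Mt3: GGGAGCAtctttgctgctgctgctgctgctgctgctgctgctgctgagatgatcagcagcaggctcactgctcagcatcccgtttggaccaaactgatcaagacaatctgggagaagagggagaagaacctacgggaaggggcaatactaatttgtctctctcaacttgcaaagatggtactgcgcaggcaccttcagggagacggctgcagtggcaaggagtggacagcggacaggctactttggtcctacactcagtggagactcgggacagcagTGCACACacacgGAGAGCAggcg
The Mt1 and Mt3 windows hold 3 matches each and the Mt2 window 6. Not all of these have the purine of the element. In Mt2, GGGAGCA and TGCTCTC have a pyrimidine in its place, as do GGGAGCA and GAGAGCA in Mt3. Every match in Mt1 has the purine. Of all windows 7.1% held at least 3 matches and 0.225% at least 6, while 51% held at least 1, as did 48.9% of the 47 windows of the 44 genes. The Mt1 and Mt2 windows hold 24 CG dinucleotides each and the Mt3 window 8.

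Mt1 was at 70.9, 114 and 150 CPM in the lowest, median and highest wild-type animals and at 91.1, 105 and 127 CPM in heterozygotes. Mt2 was at 31.4, 60.4 and 79.8 CPM in wild-type animals and at 43.6, 54.4 and 69.3 CPM in heterozygotes. Mt3 was at 85.7, 132 and 194 CPM in wild-type animals and at 108, 134 and 137 CPM in heterozygotes. In each of them the wild-type animals spread more widely than the heterozygotes and reached below and above them. The log2 fold changes were -0.05 (SE 0.138) for Mt1, -0.06 (SE 0.174) for Mt2 and -0.13 (SE 0.134) for Mt3, and none passed (adjusted p between 0.978 and 0.986 by edgeR). In set A the values were 0.25 for Mt1, 0.24 for Mt2 and 0.11 for Mt3, and in set B they were negative for all 3. Without wild-type replicate 6 the values over all animals were 0.03 for Mt1, 0.03 for Mt2 and -0.05 for Mt3.

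The effect of genotype was not shown to differ between the sexes. By edgeR none of the 44 was called for that difference, where 0% of all genes were, and none had an unadjusted p under 0.05, against 1.04% of all genes. The median of female minus male values was -0.09, with 39 of the 44 negative (50.8% of all genes), and the values ran from -0.54 (SE 0.342) for Itih3 to 0.22 (SE 0.259) for Ednrb. The median turned to 0.03 without wild-type replicate 2, a male, and was -0.21 without wild-type replicate 3, a female. Set B held 4 females and 2 males, so the sexes were not equally spread over the sets.

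Most other astrocyte genes tested also had negative values. Of a further list of 34 tested genes, among them that of the potassium channel Kcnj10, 31 had a negative log2 fold change between genotypes, with a median of -0.17, and none was called by edgeR, 5 being lower at an unadjusted p under 0.05, where 2.24% of all genes were. With the prefix as a block, Slc25a18, a mitochondrial glutamate carrier gene, fell by 0.37 (SE 0.0801, adjusted p = 0.0488 by edgeR). In set B 8 of the 34 were called lower, where 2.69% of all genes were, with a median of -0.30, and in set A the median was -0.04. The lowest p-values of this list without the block were those of Grin2c (-0.26), an NMDA receptor subunit gene, and Lrig1 (-0.20).

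Genes known to rise in reactive astrocytes were divided between both directions. Of 26 tested, 13 were negative, with a median of -0.0007, and none was called by edgeR, while 2 had an unadjusted p under 0.05, H2-D1 at 0.30 and Amigo2 at -0.25. Of 21 genes of cholesterol synthesis and export, which supply the lipid that astrocytes load onto Apoe, 7 were negative, with a median of 0.03. Hsd17b7, the gene of an enzyme of that pathway, was at 0.12, and none of the 21 was called by edgeR, while 1 had an unadjusted p under 0.05. Of the 11 other genes of the angiotensin system 7 had enough reads to be tested, and none was called, with the peptidase genes Lnpep at 0.11 and Enpep at -0.21.

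Markers of other cell types and the share of mitochondrial reads differed between the groups too, and their part in the astrocyte values was not tested. Of 13 neuron markers 1 was negative between genotypes, and their median was 0.11. Their summed level in CPM was 10634 to 11176 among wild-type mice of set A and 10777 to 11295 among its heterozygotes, and 11014 to 11695 against 10817 to 11324 for set B. Of 11 oligodendrocyte markers 3 were negative, with a median of 0.14, and for set B they summed to 4786 to 6258 CPM among wild-type mice and 4525 to 6164 CPM among heterozygotes. Of 13 microglia markers 12 were negative, with a median of -0.09, and in set B they summed to 466 to 527 CPM among wild-type mice and 411 to 456 CPM among heterozygotes. Of 13 markers of vessels 11 were negative, and in set B these summed to 343 to 396 CPM among wild-type mice and 324 to 337 CPM among heterozygotes. Of 10 markers of meninges and fibroblasts 8 were negative between genotypes and 9 in set B, with medians of -0.16 and -0.41. In set B they summed to 106 to 139 CPM among wild-type mice and 93.4 to 102 CPM among heterozygotes, which did not overlap, and in set A to 102 to 156 CPM and 122 to 135 CPM. Of 10 markers of ependyma and choroid plexus 5 were tested and all 5 were negative, with a median of -0.32, and Ttr, the transthyretin gene of the choroid plexus, was at -0.92 (SE 0.303, adjusted p = 0.978 by edgeR). The 10 summed to 18.4 to 22.1 CPM among wild-type mice of set B and 16.2 to 16.9 CPM among its heterozygotes, and to 14.4 to 20.05 and 11.8 to 16.8 CPM for set A. Of 8 genes of astroglia of white matter and the subventricular zone, a list that shares Gfap and Vim with the 44, 5 were negative between genotypes. Their sums were 282 to 428 CPM among set B wild-type mice and 257 to 290 CPM among set B heterozygotes. Gfap was called in set B with the prefix as a block. Without the block, none of these markers of meninges, ependyma or white-matter astroglia was called by edgeR between genotypes or in set B. At an unadjusted p under 0.05 between genotypes, 2, 1 and 1 of them were lower, as were 1 microglia and 1 vessel marker (2.24% of all genes). Higher at that level were 4 oligodendrocyte markers and 1 neuron marker, where 242 of the 13815 genes tested were. The set B medians were 0.22 for neuron, 0.22 for oligodendrocyte, -0.26 for microglia and -0.17 for vessel markers. There edgeR called 2 neuron and 2 oligodendrocyte markers higher, where 2.18% of all genes were. It called 1 neuron and 1 microglia marker lower, where 2.69% of all genes were, and no vessel marker. Reads of the mitochondrial genome, its ribosomal RNAs left out, made up 1.82% ± 0.269 for the wild-type mice of set B and 1.37% ± 0.234 for its heterozygotes (SD, n = 3). For set A these shares were 0.699% ± 0.136 and 0.695% ± 0.0835, in the same order (SD, n = 4). The mitochondrial ribosomal RNAs took 3.61% ± 0.921 and 2.57% ± 0.638 of reads in wild-type and heterozygous mice of set B (SD, n = 3) and 4.27% ± 0.857 and 4.75% ± 0.667 in set A (SD, n = 4). Ribosomal protein genes took 0.153% ± 0.0149 and 0.127% ± 0.00870 in set B (SD, n = 3) and 0.114% ± 0.00919 and 0.113% ± 0.00435 in set A (SD, n = 4), again in that order.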

How the data were processed

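Cortex RNA of 14 mice was measured by sequencing. A kit that keeps strand and single-end sequencing were used, per the labels' protocols. What the authors deposited is 1 table of whole-number counts per gene symbol, not normalized. The submitters' processing notes name Trim Galore, Bowtie, STAR, bedtools and the mm9 build, without versions or roles. The strand setting of the counting is not stated in those sources, so antisense neighbours could share reads. Beside the counts the authors deposited their own comparison of genotypes, as a log2 fold change, a test score and p-values before and after adjustment. DESeq2 with a prior and terms for sex and set gave the deposited log2 fold changes within 1e-06, which identifies their scale. With sex but not set as a term, the largest difference from them was 0.13. The deposited values were thus matched with set as a term, which the main fit here did not have.

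The genes and lists were chosen with earlier results of these data known. Genotype and sex came from the labels, and replicates were numbered in series order within a genotype. The p-values measure the spread between these samples, taken here as 1 animal each. After filterByExpr, 13815 genes with 99.9% of counts were tested with edgeR 4.0.16 (R 4.3.3, limma 3.58.1), using TMM factors, the robust quasi-likelihood F test and Benjamini-Hochberg adjustment over all genes, with a threshold of 0.05. Sex was the covariate. DESeq2 1.42.0 was an alternative. CPM used TMM-scaled library sizes, and standard errors came from the fold change and F. Exon lengths are the union of exons of the basic transcripts of GENCODE M21, matched by symbol. That annotation is of another build, and the basic set was chosen after the order of levels had been seen with all transcripts.

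Deviations from the genotype means of same-prefix animals of both genotypes correlated across genes at 0.2 to 0.517 in 9 pairs, above the rule of 0.1 for pairing, so results with the prefix as a replicate block are given where they change a call. With sex and set removed too, the 9 correlations were -0.328 to -0.00545. The fits were tested on simulated data with the same spread for every gene. Apart from the changes put in, no set or prefix differences were simulated, so recovery in the real data can differ. The genotype fit recovered 100% of genes changed by 1 on the log2 scale and 52% of those changed by 0.5. The contrast between sets recovered 32% and 1% of such genes, and the test over prefixes 98% and 24%. Values were given in full for the defining markers, the genes called by genotype or for a difference, those with the lowest p-values, the widest and narrowest over animals and the metallothioneins. Sdc4, Acsbg1, Glul and Slc1a2 were added after their values were seen. Some genes of the comparison lists are not reported here by name.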

Additional observations from a re-analysis of the deposited data

Results flagged for a closer look

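Aldoc, the gene of the brain form of aldolase, had 1 heterozygote apart from the other 6. Heterozygous replicate 6, a female of prefix 141, was at 698 CPM, while the next highest heterozygote was at 573, the median at 567 and the lowest at 536. The gap to the next animal was a larger share of the range than Dixon's limit for 7 animals allows. Of 88 groups examined (44 genes in each genotype) this was the 1 that stood out, and chance alone gives about 1 in 20.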

How the results depend on the processing

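Signs and medians of the 44 genes between genotypes held under all the scalings, filters, covariates and DESeq2, and the number with a negative value was 40 to 44 and their median -0.23 to -0.09 when 1 animal was left out, while the median of the difference between sexes was then -0.21 to 0.03. With 1 animal left out, Mt1 ranged from -0.14 to 0.034 and Mt2 from -0.16 to 0.026, and both were positive without wild-type replicate 6 or 7, Mt2 also without 4. In set A alone, an alternative chosen after seeing the data, 25 of the 44 were negative and 0 genes were called (0 lower, 0 higher), and Dio2 (0.020), Cldn10 (0.18), Atp1b2 (0.031), Mt1 (0.25), Mt2 (0.24) and Mt3 (0.10) were positive. In set B alone, with as few as 6 animals, 39 of the 44 and 2304 of all genes were called (1071 lower, 1233 higher). Genes called between genotypes numbered 2 (1 lower, 1 higher), but 56 with the prefix as a replicate block (20 lower, 36 higher; 1 of the 44), 15 with sex and set terms (3 lower, 12 higher), 11 with DESeq2 (10 higher), 2 lower without a filter, 2 higher with genotype alone, and 1 to 4 (1 to 2 lower, 0 to 3 higher) with 1 animal left out. Calls of the 44 for the difference between sets numbered 0, but 15 with the replicate block, 15 without a filter, 7 with DESeq2 and 0 to 18 with 1 animal left out. Calls in set B numbered 16, but 34 with the block, 35 without a filter and 0 to 29 with 1 animal left out, and the number negative in set A was then 11 to 28. With exon lengths over all transcripts, 10 genes moved by more than 3 places in the order of levels, Gja1 by 12. The cause of these shifts was not tested.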
